A study of Sus scrofa with 10 samples.

Results

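Laminin chain genes, the nidogen genes NID1 and NID2, the perlecan gene HSPG2 and the agrin gene AGRN encode the non-collagenous scaffold of basement membranes. Of 10 genes named for this set, 9 were found by gene symbol in the expression table, each in 1 row. The table holds 12378 genes with a symbol and 3260 without. They were LAMA4, LAMA5, LAMB1, LAMB2, LAMC1, NID1, NID2, HSPG2 and AGRN. LAMA2, which encodes the main laminin alpha chain of muscle, was not matched to any row by symbol and is not analysed here.

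Bulk RNA was sequenced from biopsies of the right ventricle of 5 CTEPH pigs and 5 Sham pigs, with 1 library per pig. CTEPH stands for chronic thromboembolic pulmonary hypertension, in which obstructed pulmonary arteries raise the pressure against which the right ventricle works. The CTEPH pigs gave libraries s1, s3, s4, s5 and s9 and the Sham pigs gave s2, s6, s7, s8 and s10. The sources used here give no strain, age, sex, time after surgery or way of inducing the disease. The design asks which transcripts differ in the remodelled right ventricle.

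A laminin is a trimer of 1 alpha, 1 beta and 1 gamma chain, and laminins assemble into a sheet on the surface of cardiomyocytes, endothelial cells, smooth muscle cells, fat cells and Schwann cells. Nidogens link that sheet to the collagen IV network. Perlecan and agrin are large proteoglycans that carry heparan sulfate chains, which bind growth factors. Dystroglycan and integrins connect laminins, perlecan and agrin to the cytoskeleton of the muscle cell, and defects of the muscle laminin or of that linkage cause muscular dystrophy.

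Values are log2 normalized expression as deposited, and all 9 genes lay at 11.83 or above in every library. Whole counts could be read back only from values below 9.485, which stood for 259 to 547 counts depending on the library, so every value of the 9 genes rests on more counts than that. Relative depth was lowest in s9 (0.724) and highest in s4 (1.57), both CTEPH libraries. Its mean was 1.05 ± 0.317 in the CTEPH group and 1.02 ± 0.320 in the Sham group (SD, n = 5 each), a difference with p = 0.857 in a two-sided exact permutation test. Cardiomyocyte markers, of which 8 of 9 were measured, were abundant in every library, as the ventricular label requires. Their summed level was 21.16 to 21.48 in CTEPH and 20.76 to 21.19 in Sham on the log2 scale. Of these 8 markers, 5 had a higher mean in CTEPH, MYL2 by the most (0.99 ± 0.21, SE), and 3 a lower one. In bulk tissue, fewer cells of a type and less RNA per cell cannot be told apart.

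Of the 9 genes, NID2 was higher in CTEPH and the other 8 did not pass the test across all genes. The test was limma with Benjamini-Hochberg adjustment over the whole table, and a gene is said to rise or fall where its adjusted p was under 0.05. Thus 1 of 9 genes rose, where 2.83% of all genes did, and 0 fell, where 1.79% of all genes did. At an unadjusted p under 0.05 there were 2 of the 9, NID2 higher and LAMB2 lower, where 20.3% of all genes reached it. The median difference, CTEPH minus Sham on the log2 scale, was -0.04 over the 9 genes and -0.03 over all genes, with 4 of the 9 positive and 5 negative.

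**Figure D1:**
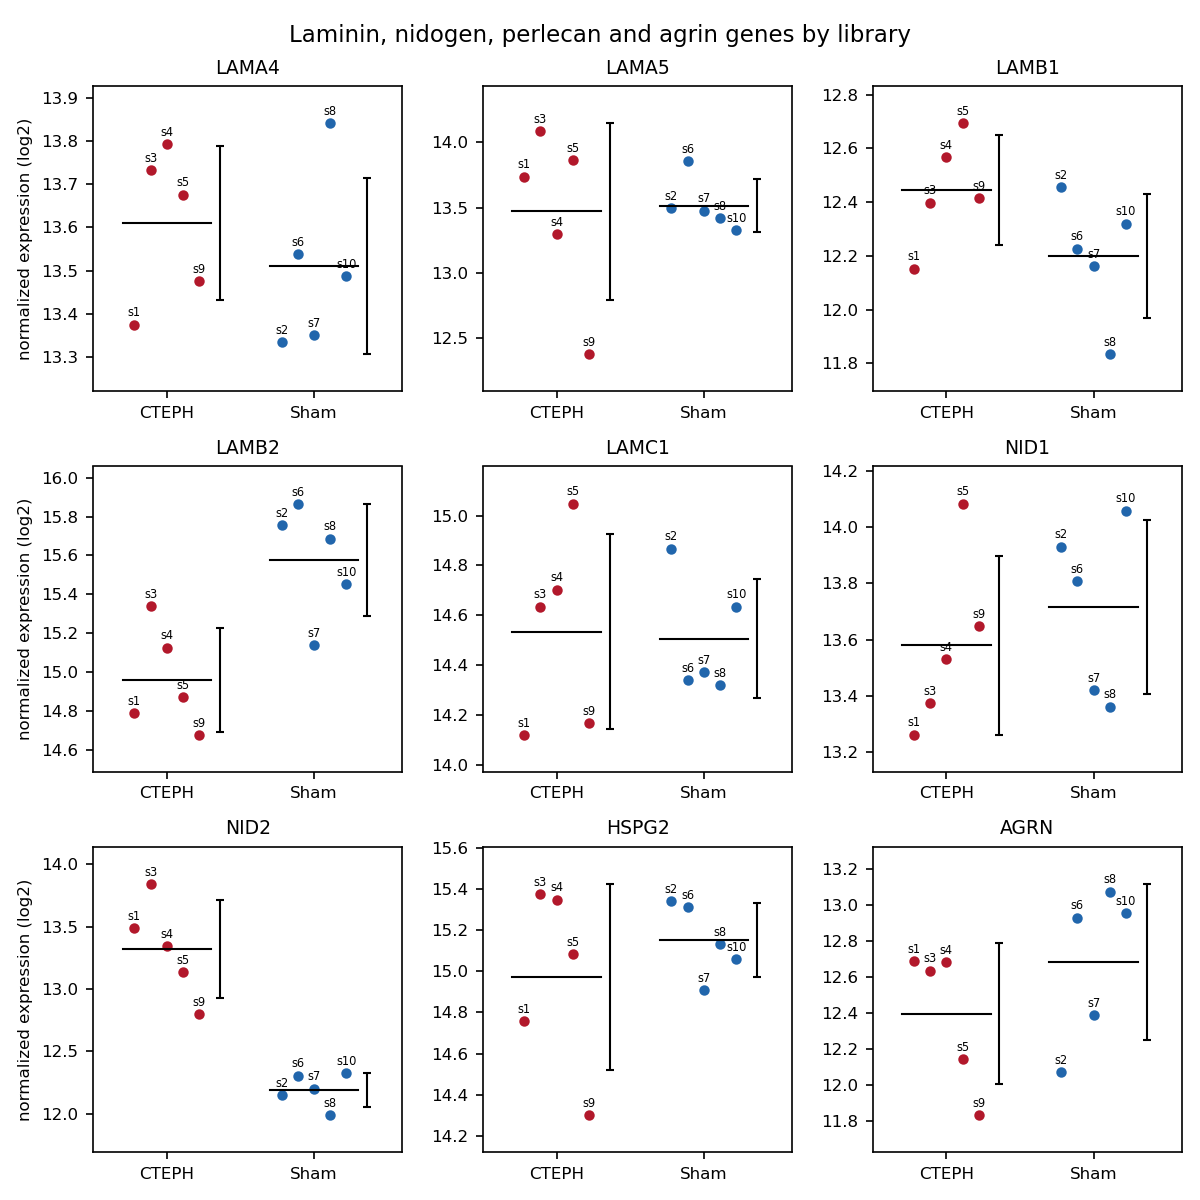
Log2 normalized expression (vertical axis) of the 9 measured genes in each library, CTEPH in red and Sham in blue, with the group mean as a line and the SD as a bar beside it. In NID2 the 5 CTEPH libraries, at 12.80 to 13.84, lie above all Sham libraries, at 11.99 to 12.33, and in the other 8 panels the groups overlap.

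The nidogens differed from each other. NID2, nidogen-2, which like nidogen-1 binds laminin, collagen IV and perlecan, lies on chromosome 1 from 181699098 to 181773084 of the pig genome build Sscrofa11.1. Its log2 value was 13.49 in s1, 13.84 in s3, 13.34 in s4, 13.13 in s5 and 12.80 in s9 among CTEPH pigs, against 12.15 in s2, 12.30 in s6, 12.20 in s7, 11.99 in s8 and 12.33 in s10 among Sham pigs. Every CTEPH library exceeded every Sham library, which held, with CTEPH higher, for 3.7% of all genes and in either direction for 6.57%. It was the 1 gene of the 9 without overlap. Mean NID2 expression was 13.32 ± 0.39 in CTEPH pigs and 12.19 ± 0.14 in Sham pigs (SD, n = 5 each). The log2 difference of 1.13 ± 0.17 (SE), a level 2.19 times that of Sham, had an adjusted p = 0.00268 (limma, Benjamini-Hochberg). Its 95% interval ran from 0.75 to 1.505. The call held in all 10 refits that each left out 1 library, with adjusted p of 7.99e-04 to 0.00986 (limma, Benjamini-Hochberg), and under all 6 other settings of the fit. The Sham libraries lay within a narrow range and the CTEPH libraries were spread, from s9, the nearest to Sham, to s3, the farthest. The SD was larger in CTEPH for 69.6% of all genes too. For 79.7% of all genes the excess of CTEPH over Sham SD was smaller than for NID2.

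NID1, nidogen-1, is the more widely studied link between laminin gamma chains and collagen IV and lies on chromosome 14 from 55239327 to 55346948. Its log2 value was 13.26 in s1, 13.37 in s3, 13.53 in s4, 14.08 in s5 and 13.65 in s9 in CTEPH, against 13.93 in s2, 13.81 in s6, 13.42 in s7, 13.36 in s8 and 14.06 in s10 in Sham. The groups covered almost the same range. The difference was -0.14 ± 0.18 (SE; 95% interval -0.53 to 0.26), with an adjusted p = 0.729 (limma, Benjamini-Hochberg).

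Between the beta chains, the lower values of LAMB2 in CTEPH were the clearest. LAMB2, the laminin beta-2 chain of vessel walls, neuromuscular junctions and kidney filters, lies on chromosome 13 from 31738282 to 31750623. Its log2 value was 14.79 in s1, 15.34 in s3, 15.13 in s4, 14.87 in s5 and 14.68 in s9 in CTEPH, against 15.76 in s2, 15.86 in s6, 15.14 in s7, 15.69 in s8 and 15.45 in s10 in Sham. All 5 CTEPH libraries lay below the Sham mean and 4 lay below every Sham library, while s3 lay above the lowest Sham library s7. All 5 CTEPH libraries were below every Sham library for 2.87% of all genes. The means were 14.96 ± 0.27 for CTEPH pigs and 15.58 ± 0.29 for Sham pigs (SD, n = 5 each). The difference of -0.62 ± 0.17 (SE; 95% interval -0.996 to -0.24), a level 0.651 times that of Sham, missed the threshold (limma adjusted p = 0.0635, Benjamini-Hochberg). LAMB2 passed without CTEPH library s3 (-0.71, adjusted p = 0.0475), without Sham library s7 (-0.73, adjusted p = 0.0435) and with relative depth as a covariate (-0.64, adjusted p = 0.0405; limma, Benjamini-Hochberg), which would make 2 of the 9 genes called, 1 of them lower. Over all its alternatives the adjusted p ran from 0.0405 to 0.147. The difference was smallest with library weights (-0.48, limma adjusted p = 0.114, Benjamini-Hochberg).

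LAMB1, the beta-1 chain found in most basement membranes, lies on chromosome 9 from 107670120 to 107747242, where the annotation also has an overlapping long noncoding RNA. Its log2 value was 12.15 in s1, 12.40 in s3, 12.57 in s4, 12.69 in s5 and 12.41 in s9 in CTEPH, against 12.46 in s2, 12.23 in s6, 12.16 in s7, 11.83 in s8 and 12.32 in s10 in Sham. The highest values, in s5 and s4, were both CTEPH and the lowest, in s8, was Sham, but the groups overlapped. The difference of 0.25 ± 0.15 (SE; 95% interval -0.07 to 0.56) did not pass (limma adjusted p = 0.375, Benjamini-Hochberg).

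**Figure D2:**
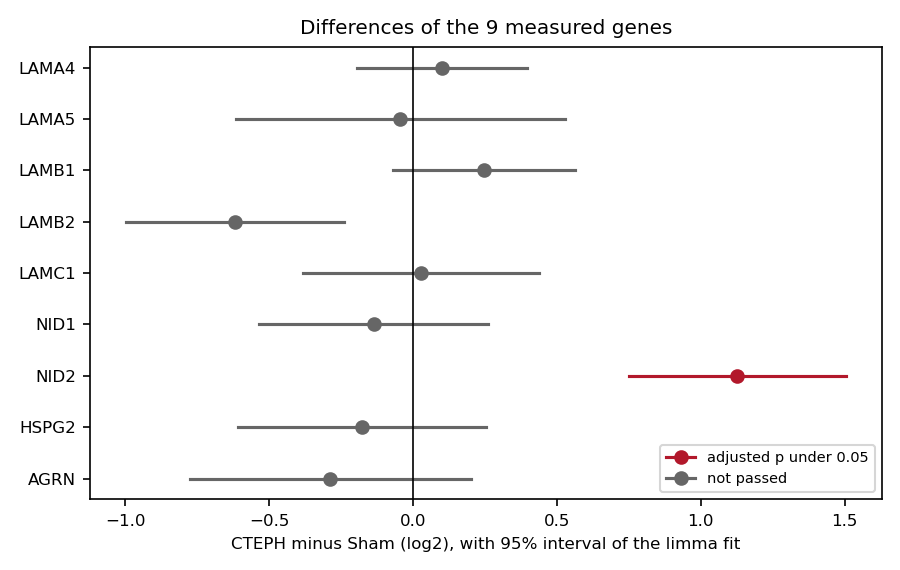
Difference of CTEPH minus Sham on the log2 scale (horizontal axis) for the 9 measured genes, with the 95% interval of the limma fit as a line. NID2, in red, is the gene that passed an adjusted p of 0.05, at 1.13, and the interval of LAMB2, from -0.996 to -0.24, also leaves out 0.

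The alpha and gamma chains showed no difference that passed. LAMA4, the alpha-4 chain of capillary endothelium, smooth muscle and fat cells (chromosome 1, 78071990 to 78224564), was at 13.38 to 13.79 in CTEPH and 13.34 to 13.84 in Sham, a difference of 0.10 ± 0.14 (SE; 95% interval -0.20 to 0.39). The CTEPH range lay inside the Sham range. LAMC1, the gamma chain shared by most laminins (chromosome 9, 124283668 to 124405967), had log2 values of 14.12 in s1, 14.63 in s3, 14.70 in s4, 15.05 in s5 and 14.17 in s9 in CTEPH, against 14.87 in s2, 14.34 in s6, 14.37 in s7, 14.32 in s8 and 14.63 in s10 in Sham. CTEPH libraries thus held both the highest and the lowest LAMC1 values. The mean difference was 0.03 ± 0.19 (SE; 95% interval -0.38 to 0.44), with adjusted p = 0.733 for LAMA4 and 0.958 for LAMC1 (limma, Benjamini-Hochberg).

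LAMA5, the alpha-5 chain of mature vessels and epithelia (chromosome 17, 61698370 to 61747795), varied more among CTEPH pigs than among Sham pigs. It was at 13.73 in s1, 14.08 in s3, 13.30 in s4, 13.86 in s5 and 12.38 in s9 in CTEPH, against 13.50 in s2, 13.85 in s6, 13.48 in s7, 13.42 in s8 and 13.33 in s10 in Sham. The SD was 0.68 in CTEPH and 0.20 in Sham, and 93.6% of all genes had a smaller excess of CTEPH over Sham SD. Library s9 was the lowest, at 12.38, with every other library at 13.30 or above. The mean difference was -0.04 ± 0.27 (SE; adjusted p = 0.951) and turned to 0.23 without s9 (adjusted p = 0.468; limma, Benjamini-Hochberg).

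The heparan sulfate proteoglycans overlapped between groups. HSPG2, which encodes perlecan (chromosome 6, 79849691 to 79958283), was at 14.76 in s1, 15.37 in s3, 15.35 in s4, 15.08 in s5 and 14.30 in s9 in CTEPH, against 15.34 in s2, 15.31 in s6, 14.91 in s7, 15.13 in s8 and 15.06 in s10 in Sham. Perlecan transcript in s3 and s4 was just above the highest Sham library, and in s1 and s9 it was below the lowest. The difference was -0.18 ± 0.20 (SE; 95% interval -0.61 to 0.25) with an adjusted p = 0.670 (limma, Benjamini-Hochberg), and -0.01 without s9. AGRN, which encodes agrin, known for clustering acetylcholine receptors at the neuromuscular junction (chromosome 6, 63366017 to 63398311), was at 12.69 in s1, 12.64 in s3, 12.69 in s4, 12.14 in s5 and 11.83 in s9 in CTEPH, against 12.07 in s2, 12.93 in s6, 12.39 in s7, 13.08 in s8 and 12.96 in s10 in Sham. No CTEPH library reached the 3 highest Sham libraries, while s2 was the lowest Sham library and lay among the CTEPH values. The difference of -0.29 ± 0.23 (SE; 95% interval -0.78 to 0.20) did not pass (limma adjusted p = 0.521, Benjamini-Hochberg). HSPG2 and AGRN each overlap a neighbouring gene at one end in the annotation (LDLRAD2 and LOC110261384), and no source used here says whether the counting used strand.

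The 5 CTEPH pigs did not move as a block. Library s9, the shallowest, had the lowest CTEPH value for 5 of the 9 genes (LAMA5, LAMB2, NID2, HSPG2 and AGRN) and s1 for the other 4 (LAMA4, LAMB1, LAMC1 and NID1). Library s3 had the highest CTEPH value for 4 genes and s5 for 3. The SD was larger in CTEPH than in Sham for 5 of the 9 genes, 55.6%, where it was larger for 69.6% of all genes. Nothing in these counts was tested.

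**Figure D3:**
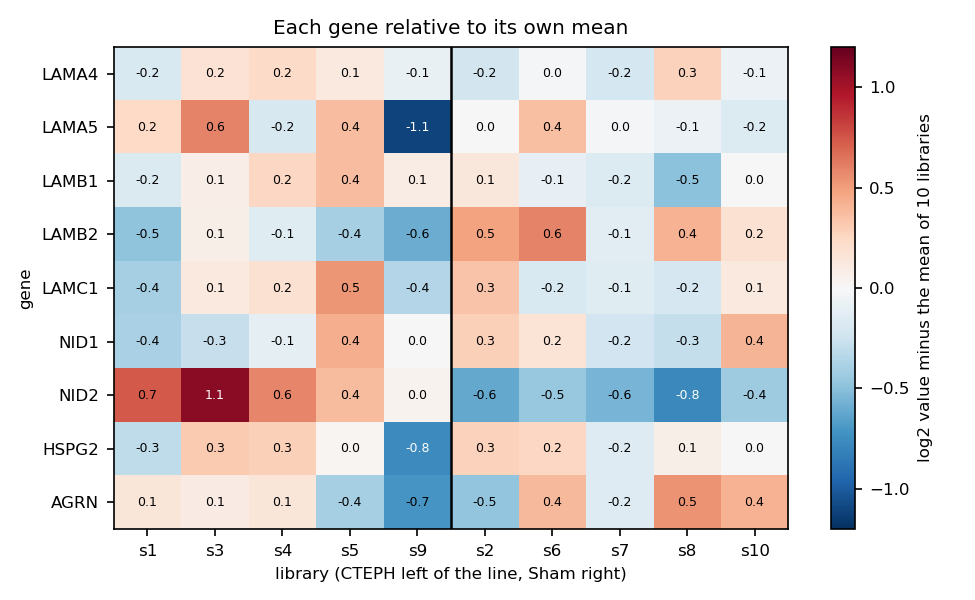
Log2 value of each gene minus its own mean over the 10 libraries (colour and number in each cell), with genes down the page and libraries across it, CTEPH left of the line and Sham right. NID2 is above its mean in the CTEPH columns and below it in the Sham columns, LAMB2 is above its mean in 4 of the Sham columns, and s9 holds the lowest LAMA5 and HSPG2 cells.

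The balance between 2 genes of the same class (laminin alpha chains, laminin beta chains, nidogens or heparan sulfate proteoglycans) was compared as a difference of log2 values within each library. This cancels a factor common to all genes of a library, but not a normalization that depends on a gene's level. Of 6 pairs planned, 4 could be formed without LAMA2, and p-values were adjusted over these 4 with the Benjamini-Hochberg method. LAMB1 minus LAMB2 was -2.64 in s1, -2.94 in s3, -2.56 in s4, -2.18 in s5 and -2.26 in s9 in CTEPH, against -3.30 in s2, -3.64 in s6, -2.98 in s7, -3.85 in s8 and -3.13 in s10 in Sham. Every CTEPH library had the higher value, narrowly so between s3 and s7. The mean was -2.51 ± 0.31 over CTEPH libraries and -3.38 ± 0.36 over Sham libraries (SD, n = 5 each). The balance was thus shifted toward LAMB1 by 0.87 ± 0.21 (SE) on the log2 scale (two-sided exact permutation p = 0.00794, the smallest this design allows, adjusted p = 0.0159). This shift is not independent of the lower LAMB2 values. Across all genes neither LAMB2 nor LAMB1 passed alone (limma adjusted p = 0.0635 and 0.375, Benjamini-Hochberg). How often pairs of other genes separate the groups was not counted.

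NID2 minus NID1 was 0.23 in s1, 0.47 in s3, -0.19 in s4, -0.95 in s5 and -0.85 in s9 in CTEPH, against -1.78 in s2, -1.50 in s6, -1.22 in s7, -1.38 in s8 and -1.73 in s10 in Sham. Again all 5 CTEPH libraries lay above the Sham libraries, with s5 and s9 nearest to them. The shift toward NID2 was 1.26 ± 0.30 (SE; two-sided exact permutation p = 0.00794, adjusted p = 0.0159), and it is not independent of the rise of NID2 itself. Without 1 library in turn the shift was 0.75 to 0.97 for the beta chains and 1.08 to 1.44 for the nidogens. Between group medians it was 0.74 for the beta chains and 1.32 for the nidogens, a statistic whose smallest exact permutation p in this design is 0.0476, so that these 2 pairs could not pass after adjustment (0.0952 each). LAMA5 minus LAMA4 differed by -0.14 ± 0.32 and AGRN minus HSPG2 by -0.11 ± 0.26 (SE; exact permutation adjusted p = 0.698 each). These log2 differences are not ratios of molecules, because the transcripts differ in length.

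**Figure D4:**
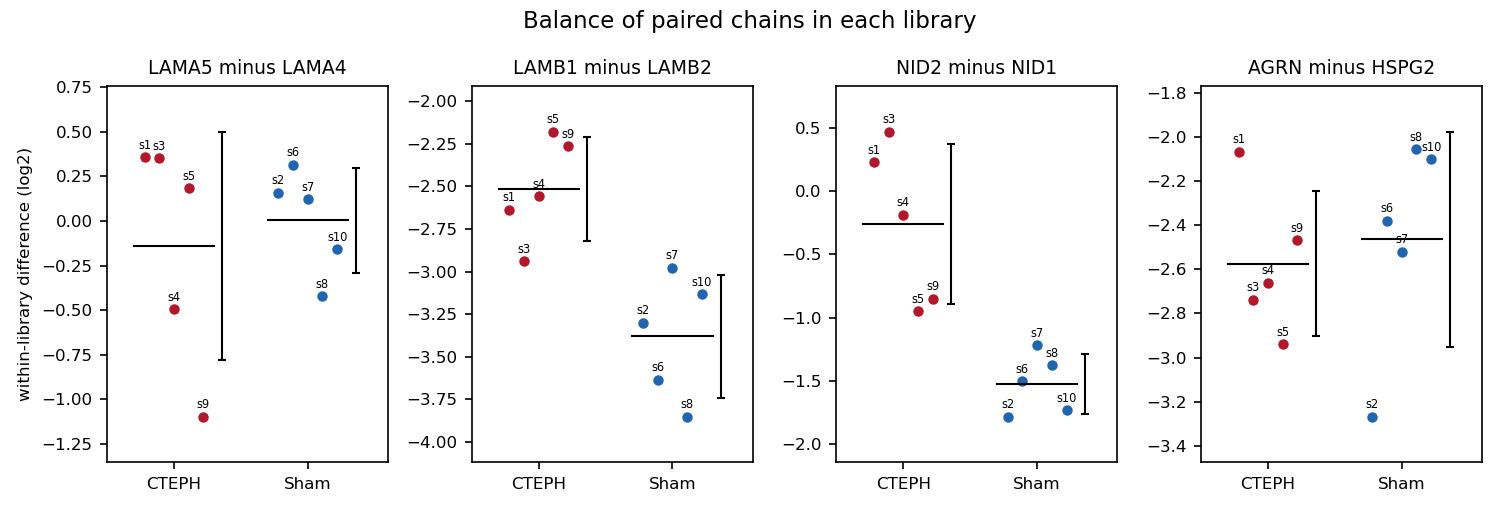
Within-library difference of log2 values (vertical axis) for 4 pairs of genes, CTEPH in red and Sham in blue, with the group mean as a line and the SD as a bar. The groups do not overlap for LAMB1 minus LAMB2 and for NID2 minus NID1, and they overlap for the other 2 pairs.

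The genes whose profile over the 10 libraries was most like that of NID2 were GIPC2, RHOC, LGMN, SERF1A and ABHD4, by the smallest root mean square difference of log2 values after each gene's mean was subtracted. That difference was 0.207 for GIPC2, a PDZ domain protein gene, 0.215 for the small GTPase gene RHOC and 0.237 for LGMN, a lysosomal protease gene, and it was 0.240 for SERF1A and 0.252 for ABHD4. GIPC2 differed by 1.01 ± 0.21, RHOC by 1.05 ± 0.18, LGMN by 0.85 ± 0.16 and SERF1A by 1.24 ± 0.25 (SE), and all 4 passed across all genes. ABHD4 differed by 0.87 ± 0.26 and did not pass (limma adjusted p = 0.0732, Benjamini-Hochberg). Genes picked for a profile near that of NID2 must differ between groups much as NID2 does, so the 4 passes are no separate result. No extracellular matrix gene was among the 5.

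The other laminin chains listed were low. Of 5 listed, 4 were measured, 0 passed, and 2 had an unadjusted p under 0.05 (limma), LAMA3 lower and LAMC3 higher. Recovered counts over the 5 libraries of a group were 123 in CTEPH and 91 in Sham for LAMA1, a chain of early embryos, 322 in CTEPH and 473 in Sham for LAMA3, an epithelial chain, and 140 in CTEPH and 128 in Sham for LAMB3, its epithelial partner. LAMC3, which encodes the gamma-3 chain, had 48, 34, 28, 28 and 8 counts in CTEPH libraries s1, s3, s4, s5 and s9, against 9, 8, 15, 3 and 6 in Sham libraries s2, s6, s7, s8 and s10. These counts are not corrected for depth, which was 1.57 in s4 and 0.748 in s7. In the normalized log2 values LAMC3 was at 6.65, 6.17, 5.11, 5.74 and 4.63 in the same CTEPH libraries, against 5.41 in Sham library s7 and at most 4.12 in the other Sham libraries, so that s1, s3 and s5 lay above all Sham libraries and s4 and s9 lay below s7. LAMC3 differed by 1.70 ± 0.52 (adjusted p = 0.0827) and passed without s9 (1.95, adjusted p = 0.0487) and without s7 (2.06, adjusted p = 0.0439; limma, Benjamini-Hochberg). LAMC3 was singled out after its values were seen.

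Among the collagens of the basement membrane, 1 of 7 measured genes rose, COL4A5, and 0 fell, beside 2.83% and 1.79% of all genes, with a median difference of 0.62 where the median of all genes was -0.03. COL4A5, the alpha-5 chain of collagen IV, was at 9.79 in s1, 11.90 in s3, 10.79 in s4, 11.06 in s5 and 10.46 in s9 in CTEPH, against 8.92 in s2, 9.36 in s6, 8.66 in s7, 9.45 in s8 and 9.30 in s10 in Sham, and the groups did not overlap. COL4A1, of the collagen IV molecule that most basement membranes contain, was at 15.20 in s1, 15.48 in s3, 15.74 in s4, 15.48 in s5 and 14.58 in s9 in CTEPH, against 14.56 to 14.73 in Sham. In COL4A1 and its partner COL4A2 4 CTEPH libraries lay above the Sham range and s9 lay inside it. Neither passed (0.65 ± 0.19 and 0.62 ± 0.22, limma adjusted p = 0.0724 and 0.127, Benjamini-Hochberg). Without s9 both did (0.83 and 0.82, limma adjusted p = 0.00394 and 0.0111, Benjamini-Hochberg), a refit singled out after its values were seen. In the other 9 refits without 1 library neither passed, with limma adjusted p up to 0.16 and 0.256 (Benjamini-Hochberg). Of the 6 other settings of the fit, each passed in 1 (limma adjusted p = 0.0116 and 0.0244, Benjamini-Hochberg). Library s9 had the lowest CTEPH value for 5 of the 9 genes, NID2 among them. A link between NID2 and these collagens was not tested.

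Of 18 other basement membrane and linker genes, ECM1 rose and PAPLN fell, where 2.83% of all genes rose and 1.79% fell. An unadjusted p under 0.05 (limma) was found for 9 of the 18, beside 20.3% of all genes. ECM1 encodes a glycoprotein that binds perlecan. It was at 11.42 to 12.37 in CTEPH and 10.33 to 10.996 in Sham, a difference of 1.03 ± 0.19 (adjusted p = 0.00942, limma with Benjamini-Hochberg). PAPLN, which encodes papilin, a basement membrane glycoprotein best known from Drosophila, was at 8.43 to 9.19 in CTEPH and 9.50 to 10.27 in Sham, and fell by 1.14 ± 0.20 on the log2 scale (adjusted p = 0.00642, limma with Benjamini-Hochberg). In both genes the groups did not overlap, which held with CTEPH higher for 3.7% of all genes and with CTEPH lower for 2.87%. Both calls held in all 10 refits without 1 library. With 1 called gene in each direction, the count is not read as a result about the list.

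Among the heparan sulfate genes SDC2 and EXT1 rose. Among 9 measured cell surface heparan sulfate proteoglycan genes 1 rose, the syndecan gene SDC2, and 0 fell, where 2.83% of all genes rose. SDC2 was at 10.18 to 10.70 in CTEPH and 9.87 to 9.93 in Sham (0.54 ± 0.13, adjusted p = 0.0367), and its groups did not overlap. The SDC2 difference was 0.48 to 0.61 in the 10 refits without 1 library. Its adjusted p was 0.0182 without s1 and ran up to 0.0841, without s7, over the other 9, in none of which it passed (limma, Benjamini-Hochberg). Among 20 genes of heparan sulfate synthesis and editing 1 rose and 0 fell. That gene was EXT1, which encodes a polymerase of the heparan sulfate chain, at 10.76 to 11.18 in CTEPH and 10.16 to 10.50 in Sham (0.64 ± 0.13, adjusted p = 0.0166), with an adjusted p = 0.0508 without Sham library s10 (limma, Benjamini-Hochberg). Of the 9 and the 20 genes, 5 and 2 had an unadjusted p under 0.05, where 20.3% of all genes did. With 1 called gene a list, neither count is read as a result about its list.

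No gene of the receptors and their muscle linkage passed, which with 4.62% of all genes called is near the share over all genes for lists of this size. By limma 0 of 12 laminin and agrin receptor genes, 0 of 11 dystrophin complex genes and 0 of 18 dystroglycan glycosylation genes passed, with 3, 1 and 1 at an unadjusted p under 0.05 and median differences of 0.04, -0.03 and 0.02. All 3 such receptor genes were lower in CTEPH, namely the integrin gene ITGA2 (-0.86 ± 0.28), the epithelial laminin receptor gene ITGB4 (-0.82 ± 0.33) and LRP4, which encodes a receptor of agrin (-0.74 ± 0.29, SE; limma adjusted p = 0.106, 0.182 and 0.170, Benjamini-Hochberg), and they were singled out after their values were seen. The dystroglycan gene DAG1 differed by 0.25 ± 0.17, the muscle laminin receptor gene ITGA7 by 0.30 ± 0.31, its beta subunit gene ITGB1 by 0.18 ± 0.22 and the dystrophin gene DMD by 0.15 ± 0.23 (SE). In the receptor list all 12 genes had the larger SD in CTEPH, as did 69.6% of all genes. ITGA7, for example, was at 12.99 in s1, 14.80 in s3, 14.49 in s4, 14.17 in s5 and 13.08 in s9 in CTEPH, against 13.41 to 13.74 in Sham, so CTEPH libraries lay on both sides of the Sham range. Of 17 measured proteases known to act on basement membranes 0 passed, with a median difference of 0.28. By limma 4 had an unadjusted p under 0.05, all 4 higher in CTEPH, where 20.3% of all genes reached it in either direction. The number of proteases called was 2 with library weights, 2 without s9 and 0 to 2 over all refits without 1 library.

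**Figure D5:**
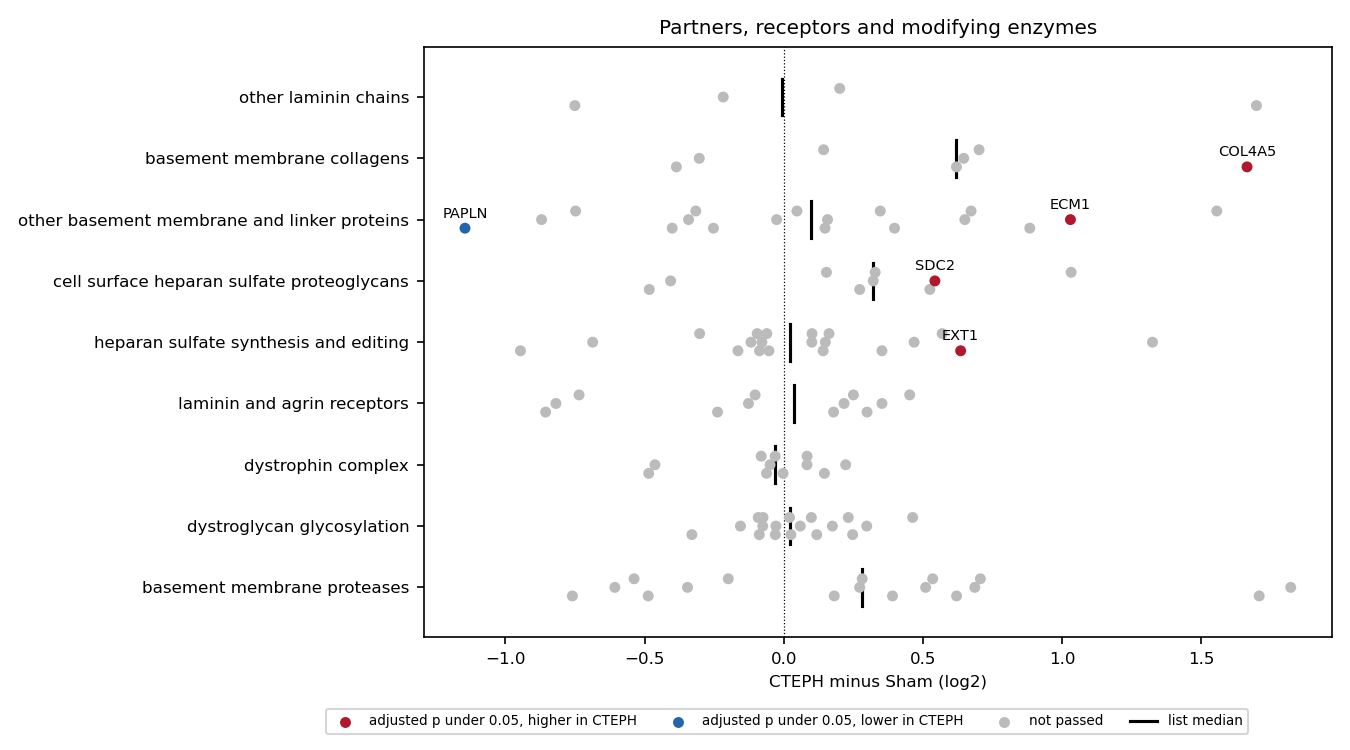
Difference of CTEPH minus Sham on the log2 scale (horizontal axis) for the measured genes of 9 lists of partners, receptors and enzymes, 1 point per gene, with the list median as a black bar. COL4A5, ECM1, SDC2 and EXT1 are the 4 genes higher in CTEPH at an adjusted p under 0.05 and PAPLN is the 1 lower gene, while the receptor, dystrophin and dystroglycan lists sit around 0.

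Over these 9 lists, 5 of 116 measured genes passed, where 4.62% of all genes did. Without CTEPH library s1 or s9 the count was 9 and 11, and without Sham library s10 it was 3 (limma, Benjamini-Hochberg).

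Among markers of cells that make basement membranes, 1 endothelial and 2 Schwann cell genes fell, where 1.79% of all genes did. All 9 measured endothelial markers had negative differences, as did 53.6% of all genes, with a median of -0.35. The other 8 did not pass, and TEK, the angiopoietin receptor gene, fell (-0.78 ± 0.17, adjusted p = 0.0205, limma with Benjamini-Hochberg). Their summed level was 14.72 to 15.11 in CTEPH and 14.89 to 15.60 in Sham on the log2 scale. Of 6 measured Schwann cell markers 5 had negative differences, and SOX10 and L1CAM fell (-1.09 ± 0.26 and -0.90 ± 0.21). The summed Schwann cell level was 12.31 to 13.87 in CTEPH and 12.41 to 12.96 in Sham, most of it from NCAM1, which had the 1 positive difference. LAMB2 had the direction of these markers and NID2 the opposite one, and the part of these cells in the result was not tested.

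In the other marker lists, cell division genes rose together. Beside the counts below, 2.83% of all genes rose, 1.79% fell and 20.3% had an unadjusted p under 0.05 (limma). Of 10 smooth muscle and pericyte markers CNN1 (1.98 ± 0.47) and DES (1.51 ± 0.32) rose and 5 had negative differences, with a summed level of 17.89 to 19.49 in CTEPH and 17.23 to 17.76 in Sham that is mostly DES, a gene that cardiomyocytes also express. Of 9 fibroblast markers 0 passed, with 3 at an unadjusted p under 0.05 (limma), and the summed level was 16.97 to 18.04 in CTEPH and 17.03 to 17.77 in Sham. MYL2 was the 1 called gene of 8 cardiomyocyte markers (0.99 ± 0.21). Of 8 macrophage, 5 lymphocyte and 3 adipocyte markers 0 passed, with 2, 0 and 0 at an unadjusted p under 0.05 (limma), and summed levels of 13.39 to 14.63, 8.52 to 9.24 and 12.94 to 13.92 in CTEPH against 13.04 to 13.92, 8.16 to 9.53 and 12.77 to 13.70 in Sham. Of 7 mesothelial and epicardial markers 2 were measured. KRT8 rose (3.53 ± 0.85) and WT1 did not pass (0.33 ± 0.31, limma adjusted p = 0.594, Benjamini-Hochberg). Their summed level was 9.49 to 12.06 in CTEPH and 7.84 to 9.66 in Sham. All 7 measured cell division markers rose, with summed levels of 11.31 to 12.84 in CTEPH and 9.14 to 9.65 in Sham. No measured marker had a count of 0 in any library, and the part of these cells in the differences of NID2 and LAMB2 was not tested.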

How the data were processed

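The deposited table holds 1 log2 value per gene and library. Per the submitters' processing notes, bcl2fastq 2.18.12, cutadapt 1.15, FastQC 0.11.5, featureCounts, edgeR 3.36.0, limma 3.50.0 and the build Sscrofa11.1 were used; no source used here gives the aligner, annotation, strand setting or low-gene filter. The labels name polyA RNA and a total RNA kit, so polyA selection is unsettled.

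All libraries hold nearly 1 distribution, as after quantile normalization, so a shift shared by most genes cannot appear. Each value below 9.485 equalled the quantile mean of log2(2 × count + 1) within 1e-06 (82505 values, 52.76%), which gave counts, up to a common factor, and relative depth as the median ratio to the geometric mean over 5703 genes with at least 5 counts in every library. Library totals were not computed.

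Ensembl identifiers were turned into symbols with a lookup table (12378 matched, 3260 did not), and coordinates (counted from 1) are those of RefSeq genes of the same symbol. The comparison used limma 3.58.1 under R 4.3.3 (intensity trend, no covariate, two-sided, Benjamini-Hochberg over all genes), tested on simulated data. Pairs and depth used SciPy 1.17.1 exact permutation over 252 assignments. A summed level is log2 of the summed linear values of a list. Named were the 9 genes, called genes of each list (up to 4, markers up to 3), 6 fixed genes (DAG1, ITGA7, ITGB1, COL4A1, COL4A2, DMD), and the 5 profiles nearest to called genes. The other laminin chains measured were named as well. ITGA2, ITGB4, LRP4, NCAM1 and WT1 were named after their values were seen. For cell division only the count and the summed levels are given. One item is not reported here. The genes and lists were chosen with earlier results of these data known. Alternatives were variance moderation, library weights, a low-gene filter, centring, depth as covariate and leaving out each library.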

Additional observations from a re-analysis of the deposited data

Results flagged for a closer look

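In 58 groups of 5 libraries examined for a value far from the other 4, where chance flags about 1 in 20, 2 were found. Sham library s8 stood apart in LAMB3, at 6.69 against 5.21 to 5.57 in the other Sham libraries. Sham library s2 stood apart in the dystrophin gene DMD, at 12.99 against 12.31 to 12.49 in the other Sham libraries. None of the 9 laminin, nidogen, perlecan and agrin genes and none of the 4 pairs had such a library.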

How the results depend on the processing

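No paired analysis was possible because each library number occurs once. The call of NID2 held in all 16 alternatives, with differences of 0.997 to 1.26. Without 1 library, LAMB2 ran from -0.73 to -0.55, LAMA5 from -0.20 to 0.23, LAMC1 from -0.10 to 0.13, LAMA1 from -0.18 to 0.57, LAMB3 from -0.58 to 0.044, the LAMA5 minus LAMA4 difference from -0.27 to 0.10 and the depth difference from -0.10 to 0.16. With library weights LAMA5 turned to 0.071 and LAMB3 to 0.13. LAMB2 passed with depth as covariate (-0.64), which made 2 called genes of the 9, 1 of them lower; without 1 library these counts were 1 to 2 and 0 to 1. With medians the pair differences were 0.061 for LAMA5 minus LAMA4, 0.74 for the beta chains and 1.32 for the nidogens, where the smallest p that medians allow is 0.0476 before adjustment. Over the partner lists, 5 genes were called (4 higher, 1 lower), 14 with library weights (12 and 2), and 3 to 11 without 1 library (2 to 10 and 1 to 2). Over all genes, 723 were called (443 higher, 280 lower), 1269 with library weights (722 and 547), and 401 to 961 without 1 library (270 to 570 and 117 to 392): 401, 475, 475, 425, 462 and 417 without s4, s5, s2, s6, s7 and s10. With the lowest 25% of genes dropped, 273 were higher. The cause was not tested. Every value of the 9 genes rests on more than 259 counts, and the intervals rest on the spread between 5 pigs a group.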
